A study of Mus musculus with 8 samples.

Results

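The 9 genes described here carry out the synthesis of triglyceride and the handling of glycerol in fat. They are Gpam, Agpat2, Lpin1, Dgat1 and Dgat2 of the esterification pathway, and Gpd1, Pck1, Aqp7 and Gyk of glycerol metabolism. They were chosen by gene symbol, and all 9 were found among the 18022 genes of the count table and passed the filter on low counts. Polyadenylated RNA of mouse subcutaneous adipose tissue was sequenced in 8 libraries, each from its own mouse of a C57BL/6J background after 4 back-crosses. The libraries KO1 to KO4 came from mice labelled with the genotype Pkd1adipo delta/delta, a deletion in adipocytes, and WT1 to WT4 from mice labelled Pkd1(flox/flox), so that both groups are named for alleles at the same locus. The locus named Pkd1 in the labels is that of protein kinase D1 (gene symbol Prkd1). The sources used here do not give the Cre line, the deleted exons, or the age, sex, diet and feeding state of the mice.

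White adipocytes store fatty acids by joining them to glycerol 3-phosphate. Gpam encodes a mitochondrial glycerol-3-phosphate acyltransferase, which adds the first acyl chain. Agpat2 encodes an enzyme that adds the next one to give phosphatidate, and Lpin1 encodes lipin 1, which removes the phosphate to give diacylglycerol. Dgat1 and Dgat2 encode unrelated enzymes for the last step, from diacylglycerol to triglyceride. Diacylglycerol is also the lipid messenger that recruits protein kinase D. The glycerol 3-phosphate comes from glucose through Gpd1, from pyruvate through the phosphoenolpyruvate carboxykinase Pck1 (glyceroneogenesis), or from glycerol through glycerol kinase (Gyk), an enzyme long known to be scarce in white fat. Aqp7 encodes the channel through which adipocytes release glycerol.

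The libraries held between 2617755 and 2873457 reads over the genes of the table. Prkd1 stood at 31.6 ± 4.71 CPM (counts-per-million reads, scaled by TMM; SD, n = 4) in the libraries labelled KO and at 30.3 ± 3.22 CPM in those labelled WT. These counts cover all exons and all cells of the tissue and did not check the labels, so every direction below is one between labelled groups. All 10 adipocyte markers were present, with a summed level of 20421 to 27641 CPM in KO libraries and 21294 to 23981 CPM in WT libraries. Skeletal muscle markers (18 of 18 in the table) summed to 3442, 2084, 370.5 and 3784 CPM in KO1 to KO4, against 77.0 to 512 CPM in WT libraries. Liver markers (15 of 15) summed to 1428 to 2583 CPM in KO libraries and 1899 to 4293 CPM in WT libraries, highest in WT1 and WT4. Trf was the largest part of this sum in each library, at 1045 to 1566 CPM in KO and 1449 to 2173 CPM in WT libraries. Alb, the albumin gene, stood at 67.7, 310, 155 and 44.2 CPM in KO1 to KO4, against 990, 80.8, 56.5 and 768 CPM in WT1 to WT4. Fits with the liver sum as a covariate therefore follow Trf as well as genes such as Alb. Of the 10 intestinal markers 2 were in the table, with a sum of up to 13.9 CPM in KO libraries and up to 448 CPM in WT libraries, in WT2. None of the 8 kidney markers was in the table. Epithelial markers (2 of 9 in the table) summed to 0 to 2.49 CPM in KO libraries and 2.86 to 20.3 CPM in WT libraries, without overlap. Both genes, Cdh1 and Krt19, lay under the count filter, with at most 28 reads in any library. Lymphoid markers (8 of 9 in the table) summed to 73.9 to 104 CPM in KO libraries and 106 to 179 CPM in WT libraries, without overlap. Only 2 of them, Ighm and Ptprc, passed the filter, and the others had at most 10 reads in any library. Ighm, the IgM heavy chain gene and the largest part of the sum, had 38.6 to 56.7 CPM in KO libraries and 60.2 to 123 CPM in WT libraries. Its groups did not overlap, as for 2.92% of all genes tested. Its log2 fold change was -0.91 ± 0.21 (SE, unadjusted p = 0.00109, adjusted p = 0.905, edgeR quasi-likelihood test). For Ptprc the groups overlapped (30.5 to 41.4 CPM in KO libraries, 33.0 to 48.3 CPM in WT libraries). The part of these cells in the results below was not tested. In whole tissue, fewer cells of a type and less RNA per cell cannot be told apart.

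Dgat2 and Pck1 were the most abundant of the 9 transcripts once scaled by length, and Gyk was the least. On the scale of CPM per kilobase of exon, Dgat2 averaged 505 ± 146 in KO libraries and 516 ± 79.8 in WT libraries (SD, n = 4 each). Pck1, the next, averaged 491 ± 320 in KO libraries and 424 ± 146 in WT libraries. These levels put Dgat2 at rank 62 in KO libraries and 67 in WT libraries among 16976 genes with a length. The ranges of Dgat2 and Pck1 overlapped in both groups. Agpat2 (275 ± 75.9 in KO libraries, 258.6 ± 70.1 in WT libraries) and Gpd1 (275 ± 29.3 in KO libraries, 265 ± 56.8 in WT libraries) followed and did not differ from each other beyond their spread. Both share exonic bases with a gene on the other strand, as given below, which limits these levels. Aqp7 averaged 75.8 ± 26 in KO libraries and 70.3 ± 5.34 in WT libraries. Dgat1 (42.1 ± 5.71 in KO, 37.9 ± 7.59 in WT), Lpin1 (37 ± 6.28 in KO, 31.8 ± 4.67 in WT) and Gpam (31.9 ± 6.36 in KO, 25.6 ± 2.11 in WT) came next, and each overlapped its neighbour in this order within both groups. Gyk lay far under them, at 1.67 ± 0.648 in KO libraries and 2.13 ± 0.416 in WT libraries, on 22 to 53 reads per library.

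For several steps of the pathway 1 member of the family held most of the length-scaled signal. Agpat2 stood over its paralogue Agpat3, another acylglycerophosphate acyltransferase, at 18.8 ± 3.34 in KO libraries and 19.2 ± 2.91 in WT libraries. Lpin1 stood over Lpin2 (1.64 ± 0.166 in KO libraries, 2.22 ± 0.76 in WT libraries) and Lpin3 (3.58 ± 1.66 in KO libraries, 4.51 ± 0.789 in WT libraries). Cytosolic Pck1 was 79.7 to 219 times as high as mitochondrial Pck2 in KO libraries and 97.6 to 241.8 times in WT libraries. The step of Gpam differed from this pattern. Agpat9, which encodes the acyltransferase GPAT3 of the endoplasmic reticulum, averaged 37.2 ± 6.46 in KO libraries and 40.9 ± 2.27 in WT libraries. It lay above Gpam in each WT library (38.4 to 42.9 against 22.9 to 28.0), while in KO2 Gpam was the higher of the pair (39.1 against 28.2). The glycerol kinase gene Gyk was low, and so was the related gene Gk5, at 2.09 ± 0.475 in KO libraries and 1.77 ± 0.15 in WT libraries.

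**Figure D1:**
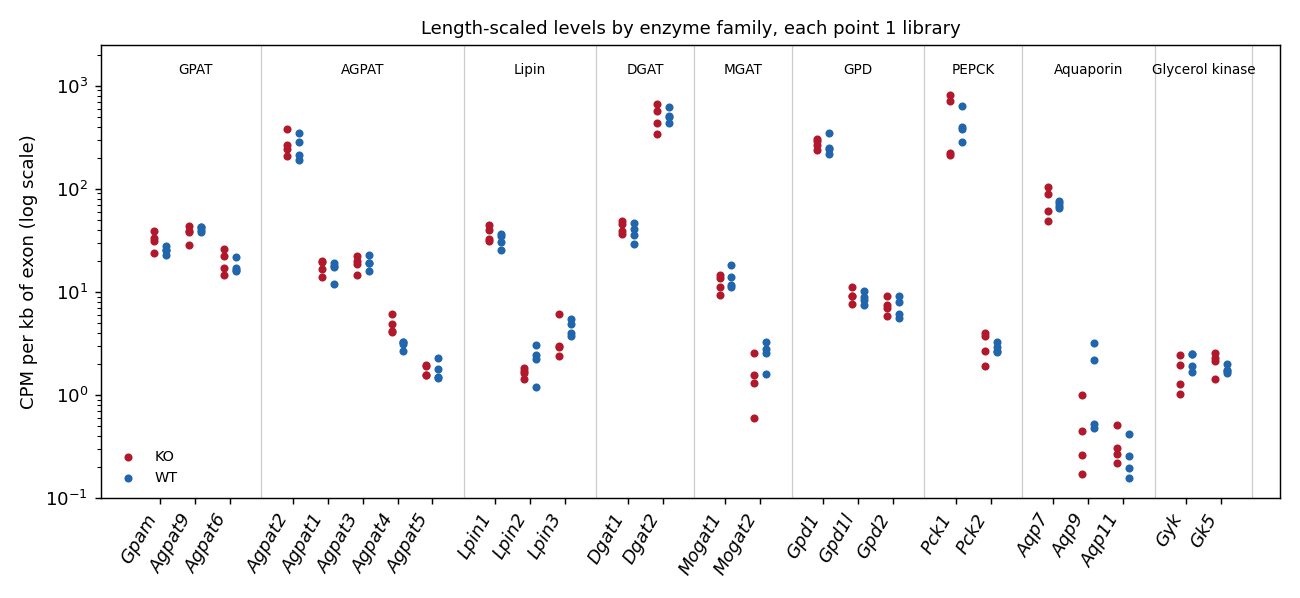
Length-scaled level (CPM per kilobase of exon, log axis) of the members and their paralogues, grouped by enzyme family, with KO libraries in red left of WT libraries in blue and each point 1 library. Agpat2, Lpin1, Gpd1, Pck1 and Aqp7 stood above their paralogues in every library, whereas Gpam lay beside Agpat9.

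The comparison of the labels asks which of these transcripts differ in subcutaneous fat after protein kinase D1 is deleted in adipocytes. None of the 9 differed past the threshold. Of the 9 members, 0 were higher and 0 lower in KO libraries at an adjusted p of 0.05 over all genes (edgeR quasi-likelihood test), against 0% of the 14556 genes tested. At an unadjusted p under 0.05 there were 0 members, against 4.49% of all genes, and DESeq2, edgeR's likelihood ratio test, limma-voom and an exact test with one common dispersion also called 0 members. The groups overlapped for all 9 members, against 2.92% of all genes whose groups did not overlap. The log2 fold change was positive for 7 members and negative for 2, where 50.1% of all genes were positive, with a median of 0.11 over the members and 0.00041 over all genes. Every member had the same adjusted p of 0.998.

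**Figure D2:**
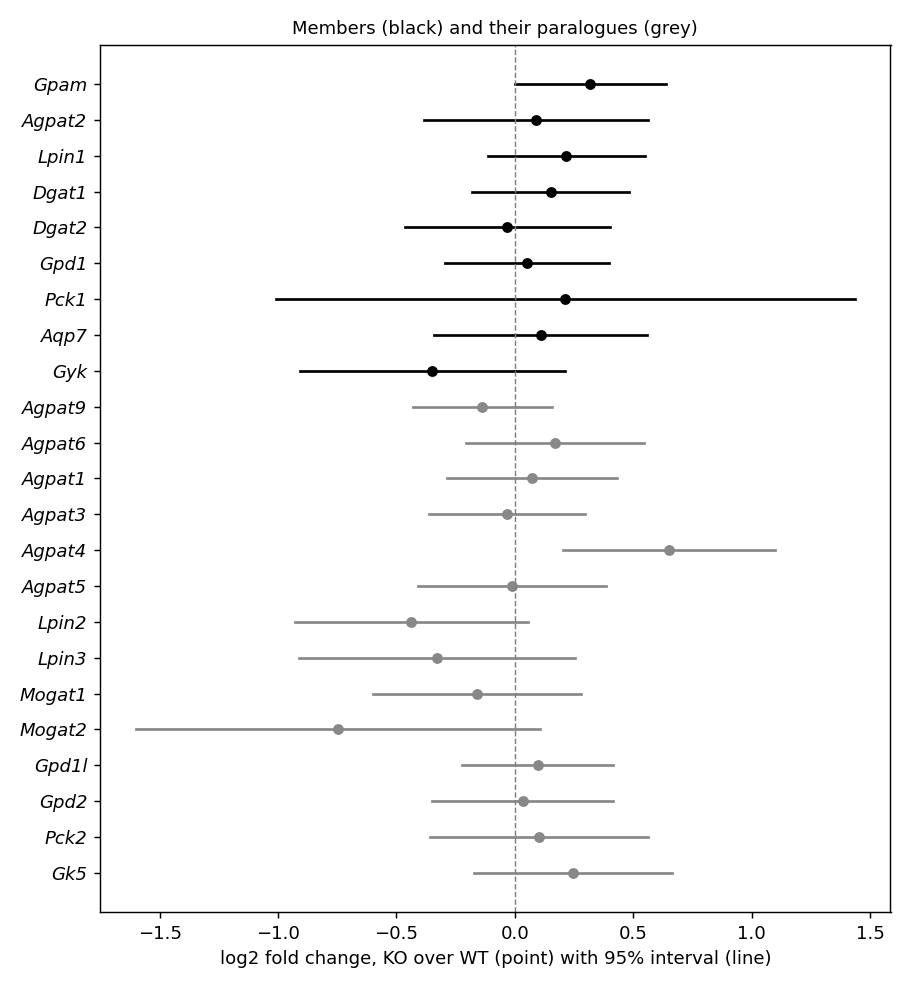
Log2 fold change of KO over WT libraries (point) with its 95% interval (line) for the 9 members in black and their tested paralogues in grey. Each member's interval includes 0, and the widest, that of Pck1, runs from -1.01 to 1.43.

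Among the esterification genes Gpam had the largest difference. It stood at 223, 261, 158 and 208 CPM in KO1 to KO4, against 171, 152, 171 and 187 CPM in WT1 to WT4. KO1, KO2 and KO4 lay above all WT libraries and KO3 lay inside their range. The log2 fold change was 0.32 ± 0.15 (SE), or 1.25-fold (95% interval 0.999 to 1.56; unadjusted p = 0.0508, adjusted p = 0.998, edgeR quasi-likelihood test). KO1, KO2 and KO4 were also the libraries with high skeletal muscle markers. With the muscle sum as a covariate the log2 fold change of Gpam was 0.10 ± 0.24 (SE), a larger error than without this covariate. It was 0.46 ± 0.15 (SE) with the liver sum, -0.11 with KO3 as the only KO library, and 0.20 without KO2.

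Lpin1 stood at 382, 431, 302 and 314 CPM in KO1 to KO4, against 349, 248, 335 and 297 CPM in WT1 to WT4. KO1 and KO2 exceeded every WT library and the other KO libraries did not. The log2 fold change was 0.22 ± 0.15 (SE), which was -0.012 with the muscle sum and 0.37 with the liver sum as a covariate, -0.027 with KO3 as the only KO library, 0.11 without KO2 and 0.13 without WT2. Lpin1 is also expressed in skeletal muscle. The part of muscle RNA in the values of Gpam and Lpin1 was not tested beyond these fits.

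Agpat2 stood at 441, 568, 520 and 816 CPM in KO1 to KO4, against 406, 457, 735 and 606 CPM in WT1 to WT4. The highest value was in KO4 and the lowest in WT1, so the spread within each group exceeded the difference between them (log2 fold change 0.09 ± 0.22 SE, -0.11 without KO4 and -0.032 without WT1). Egfl7, an endothelial gene on the other strand, shares 64 exonic bases with Agpat2 in GENCODE M21, and the library kit does not mark strand.

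The last step is shared by Dgat1 and Dgat2, whose proteins are unrelated. Dgat1 stood at 118, 110, 139 and 148 CPM in KO1 to KO4, against 88.5, 108, 143 and 124 CPM in WT1 to WT4, with a log2 fold change of 0.15 ± 0.15 (SE) that was 0.041 without WT1, 0.079 without KO4 and 0.27 without WT3. Dgat2 stood at 1344, 1766, 1050.4 and 2067 CPM in KO1 to KO4, against 1559, 1336, 1928 and 1543 CPM in WT1 to WT4. KO3 was the lowest and KO4 the highest of the 8 libraries for Dgat2, on both sides of the WT range, and the log2 fold change was -0.03 ± 0.20 (SE). It was 0.033 without KO1, 0.12 without KO3, 0.075 without WT3 and -0.56 with the muscle sum as a covariate. The length-scaled level of Dgat2 was 11.3, 15.9, 7.51 and 13.9 times that of Dgat1 in KO1 to KO4, and 17.5, 12.3, 13.4 and 12.3 times in WT1 to WT4. Only KO1 and KO3 lay under the lowest WT value of this ratio.

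Pck1 varied more than any other member, and within the KO group more than between the groups. It stood at 2447, 721, 2799.6 and 763 CPM in KO1 to KO4, against 976, 2156, 1305 and 1373 CPM in WT1 to WT4. KO1 and KO3 lay above all WT libraries, and KO2 and KO4 lay below all of them. The group averages were 1683 ± 1096 CPM in KO libraries and 1452 ± 499.8 CPM in WT libraries (SD, n = 4 each), with a log2 fold change of 0.21 and a 95% interval from -1.01 to 1.43. The sign turned without KO3 (-0.15), without KO1 (-0.024) and with the liver sum as a covariate (-0.37), while the value was 0.84 with the muscle sum and 0.0093 with the replicate block. The highest library was 3.88 times the lowest among KO libraries and 2.21 times among WT libraries. The SD of log2 CPM was 1.05 among KO libraries, larger than that of 98.6% of all genes tested, and 0.47 among WT libraries, larger than that of 88.8%.

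Aqp7 followed Pck1 from library to library. It stood at 254, 136, 296 and 172 CPM in KO1 to KO4, against 182, 217, 206 and 191 CPM in WT1 to WT4. As for Pck1, KO1 and KO3 lay above and KO2 and KO4 below every WT library. From the highest to the lowest library, both genes ran KO3, KO1 and WT2, then WT4 and WT3 in a different order for each, then WT1, KO4 and KO2. The SD of log2 CPM of Aqp7 was 0.51 among KO libraries and 0.11 among WT libraries, which was larger than that of 90.1% and of 11.2% of all genes. The log2 fold change was 0.11 ± 0.21 (SE), -0.088 without KO3 and -0.15 with the liver sum as a covariate.

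Dgat2, Gyk and Agpat2 ran the other way among the KO libraries, each with KO1 and KO3 below KO2 and KO4. Neither order was rare. Among all genes tested, 23.2% had KO1 and KO3 both above KO2 and KO4, as Pck1 and Aqp7 did, and 23.7% had both below. Gyk had 27, 44, 22 and 53 reads in KO1 to KO4, against 52, 37, 36 and 53 reads in WT1 to WT4. KO1 and KO3 lay below every WT library for Gyk, and the log2 fold change of -0.35 ± 0.26 (SE) was -0.17 without KO3 and -0.59 without KO4. It was -0.063 with the liver sum and -0.67 with the muscle sum as a covariate, and -1.07 with KO3 as the only KO library. The length-scaled level of Aqp7 was 70.0, 24.7, 104 and 24.8 times that of Gyk in KO1 to KO4, and 26.2, 40.3, 43.7 and 27.1 times in WT1 to WT4. The corresponding ratio of Pck1 to Dgat2 was 1.64, 0.367, 2.40 and 0.332 in KO1 to KO4, and 0.563, 1.45, 0.609 and 0.800 in WT1 to WT4. Both ratios were highest in KO3. The adipocyte marker sum was 27641 and 24410 CPM in KO1 and KO3, and 20421 and 20436 CPM in KO2 and KO4, with 23981 CPM in WT2, the WT library with the most Pck1. With that sum as a covariate the log2 fold changes of Pck1 and Aqp7 were -0.16 and -0.0062. Brown fat markers (8 of 8 in the table) had sums of 136, 98.2, 189.9 and 107 CPM in KO1 to KO4, against 139 to 172 CPM in WT libraries. KO1 and KO3 exceeded KO2 and KO4, and the sum in KO1 lay below every WT library, unlike for Pck1. That place of KO1 against WT1 depends on Slc27a2, at 1.47 CPM in KO1 against 36.0 CPM in WT1. Slc27a2 was also high in WT4, at 28.8 CPM, the other library with high Alb. Of the 6 brown fat markers tested, 4 had both KO1 and KO3 above KO2 and KO4, against 23.2% of all genes, and 0 had both below. The other 2, Kcnk3 and Slc27a2, had neither order. Kcnk3, the largest part of the sum, stood at 47.5, 45.0, 69.3 and 54.2 CPM in KO1 to KO4. Of the 4, Cox8b, a cytochrome oxidase subunit gene, stood at 32.0, 9.27, 30.9 and 9.27 CPM in KO1 to KO4, against 7.71 to 20.4 CPM in WT libraries. Cidea, a lipid droplet gene, stood at 18.8, 11.7, 28.8 and 10.3 CPM in KO1 to KO4, against 8.44 to 24.7 CPM in WT libraries. The part of adipocyte share, brown-like cells or muscle RNA in these values was not tested beyond the fits given.

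Gpd1, which makes glycerol 3-phosphate from a glycolytic intermediate, did not share these swings. It stood at 903, 706, 785 and 860 CPM in KO1 to KO4, against 720, 649.9, 1031 and 742 CPM in WT1 to WT4. WT3 was the highest and WT2 the lowest library, and the log2 fold change was 0.05 ± 0.16 (SE), -0.031 without WT2, -0.0027 without KO1 and 0.21 without WT3. The length-scaled level of Pck1 relative to Gpd1 was 2.34, 0.882, 3.08 and 0.765 in KO1 to KO4, and 1.17, 2.86, 1.09 and 1.598 in WT1 to WT4. The antisense gene Gm16537 shares 384 exonic bases with Gpd1 and had 2053, 1771, 1851 and 2065 reads in KO1 to KO4, against 1639, 1394, 2427 and 1716 in WT1 to WT4. Gpd1 had 2456, 2057, 2207 and 2413 reads in KO1 to KO4, against 1961, 1633, 2884 and 2034 in WT1 to WT4, and reads of the overlap cannot be told apart without strand. Gm16537 and Gpd1 had the same order of libraries apart from KO1 and KO4. How far the level of Gpd1 rests on shared reads was not tested.

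**Figure D3:**
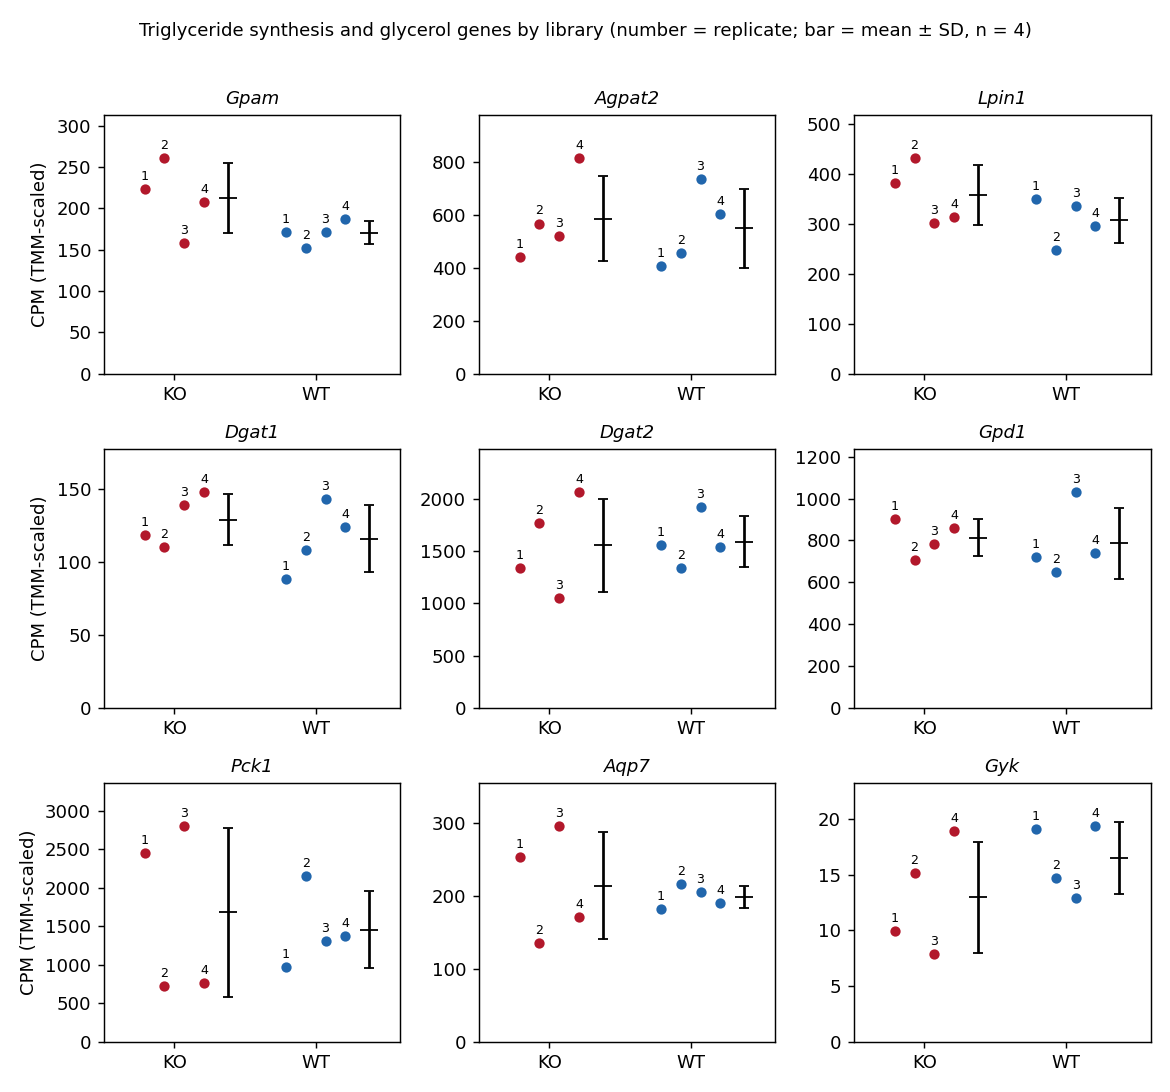
CPM of each member by library (points, numbered by replicate; bars are mean ± SD, n = 4), with KO libraries in red left of WT libraries in blue. Pck1 and Aqp7 are high in KO1 and KO3 and low in KO2 and KO4, with all WT libraries between them.

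**Figure D4:**
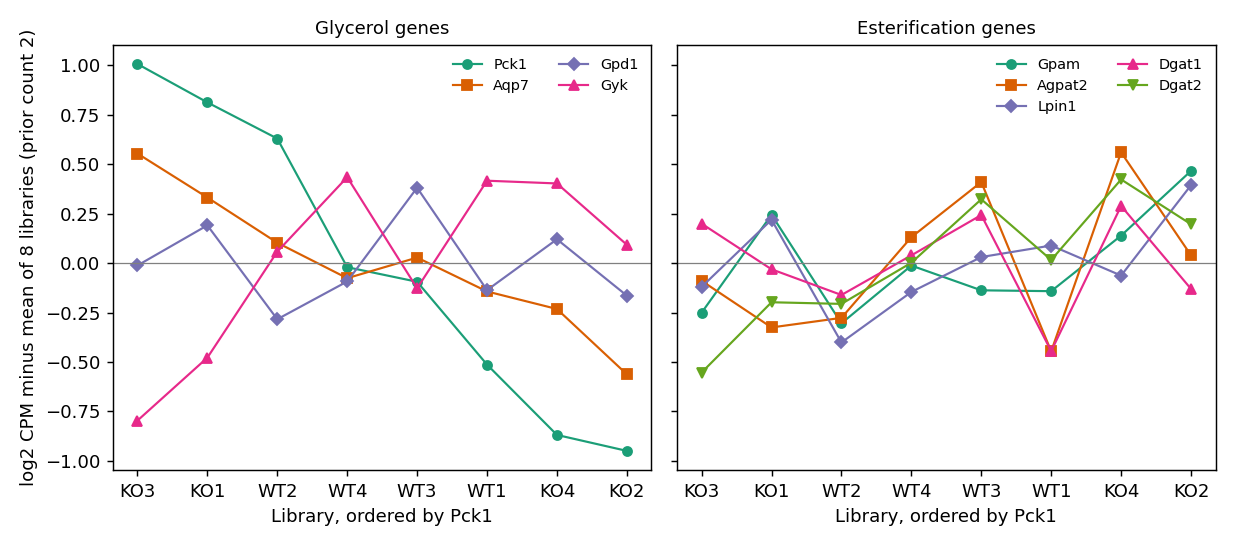
Log2 CPM of each member minus its mean over the 8 libraries, with libraries ordered by Pck1. Aqp7 falls along the Pck1 order from 0.55 in KO3 to -0.56 in KO2, Gyk and Dgat2 have their lowest values in KO3, and Gpd1 shows no such order.

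Since Pck1 and Aqp7 had nearly the same order of libraries, the 250 bases before their annotated starts are shown. They are from the RefSeq promoter table (GRCm38.p6), which held 6 of the 9 members, with Gyk under the symbol Gk. The Pck1 window is chr2:173152823-173153072 on the plus strand. The Aqp7 window is chr4:41048137-41048386 on the minus strand, the upstream one of 2 annotated starts. Capitals mark matches to ACGTCA, a core of the cyclic AMP response element, and to AGGTCA, the core site of nuclear receptors such as PPARG, each searched on both strands.
Pck1: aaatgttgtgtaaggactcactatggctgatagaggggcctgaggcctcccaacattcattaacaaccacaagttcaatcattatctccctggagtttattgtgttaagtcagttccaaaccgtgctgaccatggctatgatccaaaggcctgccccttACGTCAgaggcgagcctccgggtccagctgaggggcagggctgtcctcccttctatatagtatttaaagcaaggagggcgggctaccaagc
Aqp7: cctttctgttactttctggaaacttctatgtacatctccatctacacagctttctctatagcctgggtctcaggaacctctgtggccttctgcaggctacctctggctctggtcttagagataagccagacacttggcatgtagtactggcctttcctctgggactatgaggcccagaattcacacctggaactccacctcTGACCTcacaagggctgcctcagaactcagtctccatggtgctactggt
The Pck1 window held 1 ACGTCA, from 91 to 86 bases before the start. This promoter is known for its response to cyclic AMP. The Aqp7 window held 1 AGGTCA on the reverse strand, from 49 to 44 bases before the start. The window of the other Aqp7 start overlaps this one and held 2, of which 1 is the same site. Of the members with other library orders, a Gpam window held both ACGTCA and AGGTCA and the Lpin1 window held AGGTCA. Of all 32851 windows in the table, 6.47% held ACGTCA and 14% held AGGTCA. The direct repeat of AGGTCA with a spacer of 1 base was in 0.0335% of all windows and in neither of these, and the windows had no full match in common. No binding was measured here, so that these matches are a description of the letters.

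The genes whose profile over the 8 libraries was closest to that of Pck1 were Nat8l, 2900052L18Rik and Pim3. Likeness was measured as the root mean square difference of mean-centred log2 CPM, which was 0.15 for Nat8l, 0.23 for 2900052L18Rik and 0.26 for Pim3. Nat8l, which encodes the enzyme that makes N-acetylaspartate, stood at 140, 39.8, 145 and 32.1 CPM in KO1 to KO4, against 51.4, 93.5, 67.2 and 76.6 CPM in WT1 to WT4. As for Pck1, KO1 and KO3 lay above and KO2 and KO4 below every WT library. Pim3, a serine/threonine kinase gene, ran from 76.9 to 204 CPM in KO libraries and from 92.1 to 189 CPM in WT libraries. The closest to Gyk, the member with the next widest range, were Tnfrsf12a (0.13), Gm14567 (0.16) and Gamt (0.16). These genes and Gyk have few reads, and all of these were chosen for their likeness among 14556 genes.

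The wider pathway was described from 5 further lists, of which 0 genes passed over all genes tested (edgeR quasi-likelihood test) and 0 with DESeq2. The list of other acyltransferases, lipins and their regulators had 15 tested genes, 6 with positive and 9 with negative log2 fold changes and a median of -0.014. In it 1 gene had an unadjusted p under 0.05, against 4.49% of all genes. That gene was Agpat4, a minor acylglycerophosphate acyltransferase of this tissue. It stood at 16.6, 11.3, 13.2 and 11.1 CPM in KO1 to KO4, against 8.44, 8.76, 7.15 and 8.75 CPM in WT1 to WT4. KO libraries lay above WT libraries without overlap, as for 1.53% of all genes, on 31 to 45 reads in KO libraries and 20 to 24 in WT libraries. Its log2 fold change was 0.65 ± 0.21 (SE, adjusted p = 0.998), and between 0.52 and 0.72 with each library left out. Lpin2 had a log2 fold change of -0.44 ± 0.23 and Lpin3 one of -0.33 ± 0.27. Lpin2 was -0.25 without WT1, and Lpin3 -0.71 without KO2 and -0.18 without KO3. The length-scaled ratio of Lpin1 to Lpin2 was 24.4, 24.5, 21.9 and 19.2 in KO1 to KO4, and 11.9, 21.3, 14.3 and 13.9 in WT1 to WT4, so that WT2 lay inside the KO range. With the liver sum as a covariate Lpin2 was -0.12 and Lpin3 -0.093, and with the muscle sum -0.72 and -0.76.

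Other paralogues apart from Mogat2 had small values. Agpat9 and Agpat6, the acyltransferases GPAT3 and GPAT4, had log2 fold changes of -0.14 ± 0.14 and 0.17 ± 0.18 (SE). Agpat6 was 0.021 without KO1, and Agpat9 was -0.026 without KO2. Agpat1, Agpat3 and Agpat5 lay between -0.03 and 0.07. Of the monoacylglycerol acyltransferases, Mogat1 had -0.16 ± 0.20 and Mogat2 had -0.75 ± 0.40, Mogat2 on 3 to 15 reads. Tmem188, a regulatory subunit of the lipin phosphatase also known as Cnep1r1, had 0.19 ± 0.16 (0.043 without KO2), and its catalytic partner Ctdnep1 had 0.08 ± 0.16.

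Of 11 other tested genes of glycerol 3-phosphate and glyceroneogenesis, 7 were positive and 4 negative, with a median of 0.033. At an unadjusted p under 0.05 there were 0, against 4.49% of all genes. Gpd1l, Gpd2 (the mitochondrial glycerol-3-phosphate dehydrogenase), Pck2 and Gk5 had log2 fold changes of 0.10 ± 0.15, 0.03 ± 0.18, 0.10 ± 0.21 and 0.25 ± 0.20 (SE). Gk5 was 0.14 without KO2 and 0.39 without KO1. Pcx, the pyruvate carboxylase that feeds glyceroneogenesis, stood at 599 ± 40.8 CPM in KO libraries and 633 ± 120 CPM in WT libraries. Got1, a cytosolic aspartate aminotransferase, had a log2 fold change of 0.55 ± 0.37, which was 0.17 without KO1 and 0.88 without WT1, and -0.034 with the muscle sum and 1.02 with the liver sum as a covariate. Aqp9, the glycerol channel of liver, lay under the count filter with 5, 12, 2 and 3 reads in KO1 to KO4, against 36, 5, 6 and 25 reads in WT1 to WT4. Its high libraries WT1 and WT4 had 990 and 768 CPM of Alb, the albumin gene, against 44.2 to 310 CPM in KO libraries and 56.5 and 80.8 CPM in WT3 and WT2. The authors' deposited table lists Aqp9 with a log2 fold change of -1.75 and an adjusted p of 0.000396, the 1 gene of these lists under 0.05 there.

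The list of enzymes that draw phosphatidate or diacylglycerol away from storage held 17 tested genes, 9 of them positive, with a median of 0.026 and 2 at an unadjusted p under 0.05, against 4.49% of all genes. Both were diacylglycerol kinases, which return diacylglycerol to phosphatidate. The other 7 kinases of this family in the list ran from -0.22 for Dgkz and -0.13 for Dgkg to 0.28 for Dgkh. Dgka stood at 19.1, 27.8, 18.1 and 21 CPM in KO1 to KO4, against 13.6, 13.9, 11.4 and 14.6 CPM in WT1 to WT4, without overlap, as for 2.92% of all genes in either direction. Its log2 fold change was 0.69 ± 0.18 (SE, adjusted p = 0.905), from 0.54 to 0.76 with each library left out and 0.44 with KO3 as the only KO library. Dgkb had 0.77 ± 0.34 (adjusted p = 0.998) on 5 to 25 reads. The 5 tested acyl-CoA synthetase and binding genes had a median of -0.17, with Acsl5 at -0.21 ± 0.14, which was -0.085 without WT2, and Dbi, the acyl-CoA binding protein, at -0.17 ± 0.13. Among 8 transcription factors, 6 were positive with a median of 0.075, where 50.1% of all genes were positive. Of these factors 1 had an unadjusted p under 0.05, against 4.49% of all genes. That was Mlxipl (ChREBP, a glucose-responsive activator of lipid synthesis), with 0.38 ± 0.17 (adjusted p = 0.998), 0.27 without WT2 and 0.58 without WT4. Its groups overlapped, since WT4, at 86.8 CPM, lay inside the KO range of 68.4 to 89.6 CPM. Pparg, the master regulator of fat cells, had 0.14 ± 0.16, and 0.040 without WT2.

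The authors' deposited table lists 2.42% of its 18022 genes at an adjusted p under 0.05, and 0 of the 9 members. In the authors' deposited table the log2 fold changes of the members run from -0.35 for Gyk to 0.31 for Gpam, each with an adjusted p of 1.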

How the data were processed

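Whole-number read counts, not normalized, were deposited by the authors for each Ensembl gene. They also deposited log2 fold changes, p-values and adjusted p-values of 1 comparison. FastQC, Bowtie2, edgeR and mm9 are named, without roles, in the submitters' processing notes, which name no counter. Libraries were grouped by title and columns matched by mouse label. Libraries held 2617755 to 2873457 reads, which limits precision for genes such as Gyk. Of the table's genes, 14556 passed filterByExpr and entered a robust quasi-likelihood fit with TMM factors in edgeR 4.0.16 under R 4.3.3. Calls were made at a Benjamini-Hochberg adjusted p of 0.05 over these. The standard error of a log2 fold change is its size divided by the square root of F, and intervals cover 95%. p-values measure the spread between these mice. Lengths are exon unions of GENCODE M21 (GRCm38), another build than that of the counts. Between libraries of 1 label the chi-square per gene was at least 4.45, so none was counted as a copy. The fit was also run on simulated counts with the same dispersion for all genes, unlike these data, so that run does not cover genes that vary more.

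Members and lists were chosen with earlier results of these data known. Named were the members, their paralogues, the 2 genes of smallest p among the others of each list, and the 3 genes with the profile (log2 CPM, prior count 2) closest to each of the 2 members of widest range. Marker genes and the diacylglycerol kinases other than Dgka and Dgkb are named outside this rule, as is Cebpa, and were chosen after their values were seen. The alternatives were other scalings and filters, DESeq2 1.42.0, edgeR's likelihood ratio and exact tests, limma-voom (limma 3.58.1), the replicate number as a block, marker sums as covariates, and each library left out.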

Additional observations from a re-analysis of the deposited data

How the results depend on the processing

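No member passed the threshold under any of 24 alternatives. Of 40 named genes with a fold change, 0 passed under any alternative, and 16 kept their sign under all of them, among the members Gyk alone, whose value ran from -1.07 to -0.063. The cause of the sign changes was not tested. Over all genes, 0 were called, against 51 with DESeq2, 34 with the likelihood ratio test, 224 with an exact test with one common dispersion, 436 with that test and no count filter, and 0 to 50 with each library left out (50 without KO3). With the exact test and no count filter 1 gene of the pathway lists was called, Aqp9, which the filter had removed. That setting and the fit with KO3 as the only KO library, which assumes that KO3 varies like the others, were chosen after the data were seen. With the replicate block 0 genes were called, Pim3 was -0.049, Pck1 0.0093, Aqp7 0.049 and Nat8l 0.058. Deviations of same-numbered libraries correlated between -0.29 and -0.14, which showed no pairing by number. They cannot exclude one, since differences in tissue content between libraries also enter these deviations.

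Signs turned as follows. With muscle markers as a covariate, Agpat2 was -0.092, Lpin1 -0.012, Gpd1 -0.16, Agpat3 0.17, Mogat1 0.11, Got1 -0.034 and Prkd1 -0.093. With liver markers, Dgat1 was -0.0053, Dgat2 0.055, Gpd1 -0.018, Pck1 -0.37, Aqp7 -0.15, Agpat1 -0.15, Ctdnep1 -0.042, Gpd2 -0.14, Nat8l -0.18, 2900052L18Rik -0.13, Pim3 -0.47 and Tnfrsf12a 0.035. With adipocyte markers, Dgat2 was 0.0091, Pck1 -0.16, Aqp7 -0.0062, Gpd2 -0.0016, Pck2 -0.0061, Nat8l -0.12, 2900052L18Rik -0.069 and Pim3 -0.16. With limma-voom, Pck1 was -0.034, Agpat5 0.079, Pck2 -0.036, Nat8l -0.075 and Pim3 -0.042. With KO3 as the only KO library, Gpam was -0.11, Agpat2 -0.085, Lpin1 -0.027, Gpd1 -0.0030, Agpat3 0.22, Mogat1 0.0036, Tmem188 -0.079, Got1 -0.062 and Prkd1 -0.022. Agpat5 was 0.013 with library totals alone. Pim3 was -0.0013 with upper quartile scaling, -0.0014 with no count filter and -0.0015 with the exact test and no count filter.

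With each library left out, the values ran from -0.11 to 0.26 for Agpat2, -0.20 to 0.12 for Dgat2, -0.031 to 0.21 for Gpd1, -0.15 to 0.46 for Pck1 and -0.088 to 0.27 for Aqp7. They ran from -0.059 to 0.17 for Agpat1, -0.13 to 0.075 for Agpat3, -0.092 to 0.13 for Agpat5, -0.25 to 0.012 for Mogat1, -0.0050 to 0.23 for Ctdnep1, -0.0035 to 0.18 for Gpd1l and -0.086 to 0.17 for Gpd2. For Pck2 they ran from -0.049 to 0.27, for Pcx -0.19 to 0.025, for Nat8l -0.035 to 0.59, for 2900052L18Rik -0.10 to 0.48, for Pim3 -0.29 to 0.23 and for Prkd1 -0.024 to 0.14.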

Other observations

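Some adipocyte genes ran along the library order of Pck1 among the KO libraries and some against it. Of the 10 adipocyte markers, 7 had both KO1 and KO3 above KO2 and KO4, 2 (Lep and Retn) had both below, and 1 (Plin4) had neither, against 23.2% above and 23.7% below among all genes tested. Cebpa, which encodes a transcription factor of fat cells, stood at 919.6, 621, 1079 and 665 CPM in KO1 to KO4, against 646, 1183, 713 and 839 CPM in WT1 to WT4. KO3, KO1 and WT2 held its 3 highest values, as they did for Pck1, although WT2 came first. Cfd, which encodes the adipokine adipsin, stood at 3893, 1876, 3154 and 1645 CPM in KO1 to KO4, against 1354, 3397, 1326 and 2850 CPM in WT1 to WT4. Adipoq, the adiponectin gene, stood at 1763, 1020.2, 1635 and 1036 CPM in KO1 to KO4, against 1331 to 1732 CPM in WT libraries. Lep, the leptin gene, ran the other way among KO libraries, at 971, 1949, 1183 and 2523 CPM in KO1 to KO4, against 1553 to 3319 CPM in WT libraries. These genes were chosen after their values were seen, and no test was made of the likeness.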
